A study of Saccharomyces cerevisiae with 9 samples.

Results

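Yeast exposed to 300 mg/L bisphenol A (BPA) was compared with yeast exposed to 50 mg/L BPA. The comparison uses the 6 arrays whose labels give these doses, 3 for each, of 9 arrays in the series. The study is a dose comparison of the transcriptome of Saccharomyces cerevisiae, measured on 1-colour Affymetrix arrays with 1 probe set kept per gene, which gave 5449 genes. In the 300 mg/L group, cultures growing exponentially in rich YPD broth received BPA dissolved in ethanol to 300 mg/L. The 50 mg/L group received BPA in ethanol to 50 mg/L, and the 3 controls received an equal volume of ethanol and no BPA, so that all 9 cultures carry ethanol. All were exposed for 180 min before total RNA was taken. The sources used here do not give the strain, its ploidy or mating type, or how fast and how densely the cultures grew. Replicates are biological by their labels, but how each culture was begun is not stated, so p-values measure the spread between these cultures, which may be partly technical.

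Bisphenol A is the monomer of polycarbonate plastics and epoxy resins, a hydrophobic molecule with a pair of phenol rings. Budding yeast ferments glucose by preference and stores part of it as glycogen and trehalose. Ribosome production takes up much of the transcription of a growing culture. Sporulation is a separate programme: diploid cells that lack a good carbon and nitrogen source go through meiosis and wrap the products in a spore wall, and its genes are normally kept silent in growing cells. A yeast cell that meets a toxic hydrophobic compound typically raises membrane pumps of the pleiotropic drug resistance family.

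The values are log2 expression levels, so that a difference of 1 is a 2-fold change. All levels are relative to the other transcripts on the same array, since nothing in the scaling measures how much mRNA a cell holds. In such bulk cultures, fewer cells of a kind and less RNA per cell cannot be told apart. Probe sets differ in brightness, so a higher level of 1 gene than of another does not show more transcript. Between 5363 and 5418 genes lay above background on each array, with background taken as the 95th percentile of the probe sets for fission yeast (Schizosaccharomyces pombe), at 2.05 to 2.20. Correlations across genes were 0.994 to 0.997 within the 300 mg/L arrays and 0.991 to 0.996 within the 50 mg/L arrays, against 0.955 to 0.968 between the doses. The median SD of a gene was 0.079 at 300 mg/L and 0.130 at 50 mg/L. Replicate 2 at 50 mg/L stood apart from the other arrays of its dose, with a second principal component score of 15.12 against -7.57 to 3.13 on the other 8 arrays. Counts of more than 2 list members that moved by over 1.5 times without that array are given with and without it. Control probe sets that read both ends of 1 RNA bear on RNA quality. For 18S rRNA the 3′ probe set was 1.25 higher and the 5′ probe set 0.24 lower at 300 than at 50 mg/L, whereas the ends of the RIP1 mRNA moved by -1.16 (3′) and -1.32 (5′) and those of SPT15 by 0.44 and 0.55. The ends of TDH1 moved by -1.17 and -1.71. The part of RNA quality in the gene results was not tested.

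The higher dose differed from the lower one across much of the transcriptome, mostly by small steps. With limma and Benjamini-Hochberg adjustment over all genes at a threshold of 0.05, 2878 of 5449 genes (52.8%) differed between 300 and 50 mg/L. Of these, 1497 (27.5% of all genes) were higher and 1381 (25.3%) lower at 300 mg/L. The change was under 1.5-fold for 1987 of the 2878. Larger changes were more often rises: 226 genes (4.15%) were at least 2-fold higher and 48 (0.881%) at least 2-fold lower. At 4-fold or more the counts were 58 higher (1.06%) and 2 lower (0.0367%). The median change over all genes was 0.001, the median among the higher genes 0.49 and that among the lower genes -0.41, with a median SE of 0.090.

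In 3249 genes (59.6%) the values at the 2 doses did not overlap, with 1682 higher (30.9%) and 1567 lower (28.8%). Called genes made up 2793 of these. The share of calls that were higher, 52%, depended on the scaling. It was 62.2% (882 higher, 535 lower) with arrays centred on the hybridisation spike-ins and 44.9% (1311 higher, 1612 lower) with the genes quantile normalized again. The latter scaling gave 173 genes at least 2-fold higher and 78 at least 2-fold lower.

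**Figure D1:**
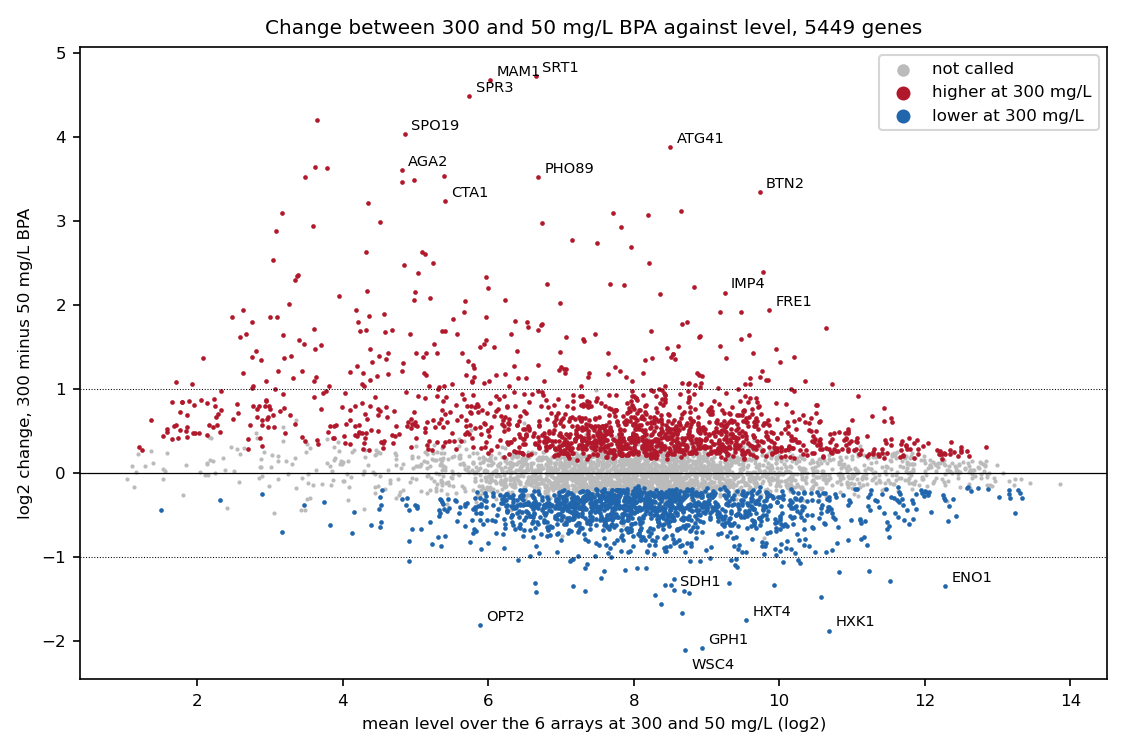
Each point is 1 of 5449 genes, with its mean log2 level over the 6 arrays at 300 and 50 mg/L BPA on the x axis and its log2 change (300 minus 50 mg/L) on the y axis. Red genes passed the test as higher at 300 mg/L (1497), blue ones as lower (1381) and grey ones did not pass; dotted lines mark 2-fold, and the largest rises reach further from 0 than the largest falls.

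The lower dose itself was close to the ethanol control. With limma, 0 of 5449 genes differed between 50 mg/L and control, where 389 had an unadjusted p under 0.05 and the smallest adjusted p was 0.302. When arrays were weighted by their quality, 31 genes passed. Against the same control, 300 mg/L BPA gave 2872 genes (52.7%), 1500 higher and 1372 lower. These contrasts share arrays with the one described here and are given only beside it.

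Large rises were concentrated among genes with dim probe sets. With the genes ranked by mean level and cut into 5 classes of equal size, 39.9% of the lowest class (0.98 to 6.72) were higher and 16.3% lower at 300 mg/L, and it held 144 of the 226 genes that were at least 2-fold higher. In each of the other 4 classes, 23% to 24.9% were higher and 26.8% to 28.8% lower. For 50 of the higher genes, no array at 50 mg/L exceeded the background, so that only a lower bound of their fold can be given.

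Several of the largest rises were in genes known from meiosis and sporulation, which growing yeast normally keeps low. SRT1 (YMR101C), a cis-prenyltransferase that makes long-chain dolichols and is known from sporulating cells, stood at 9.24, 8.76 and 9.06 at 300 mg/L, against 4.41, 4.12 and 4.34 at 50 mg/L. It rose by 4.73 ± 0.12 (SE), or 26.45-fold. MAM1 (YER106W), a monopolin subunit that makes sister kinetochores attach to the same pole in meiosis I, had 9.15, 7.65 and 8.28, against 3.62, 3.98 and 3.47, a rise of 4.67 ± 0.31. The lowest array at 300 mg/L lay more than 3 log2 units above the highest at 50 mg/L for both genes.

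SPR3 (YGR059W), a septin of the forming spore membrane, had 8.52, 7.36 and 8.07 at 300 mg/L, against 3.67, 3.21 and 3.61 at 50 mg/L. SPO19 (YPL130W), a prospore membrane protein, had 6.73, 7.24 and 6.66, against 2.77, 2.45 and 3.31. SPS1 (YDR523C), a kinase needed to close the spore membrane and build the wall, had 7.51, 6.99 and 6.97, against 3.52, 3.81 and 3.52. These 3 genes rose by 4.49 ± 0.24, 4.03 ± 0.22 and 3.54 ± 0.16, again without overlap between the doses.

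For 4 of the 15 largest rises no 50 mg/L array exceeded the background, and the fold is a bound. YLR412C-A, an uncharacterised reading frame, had 6.24, 5.03 and 5.98 at 300 mg/L and was at least 11.91-fold higher. SPS2 (YDR522C), a spore wall protein, with 6.02, 5.62 and 5.15, was at least 10.71-fold higher. The corresponding bounds were 9.6-fold for SAE3 (YHR079C-A), which helps load the meiotic strand-exchange protein Dmc1, and 8.357-fold for ECM23 (YPL021W), a GATA-family protein. ECM23 was tightly grouped at 300 mg/L, at 5.19, 5.23 and 5.30.

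The other 6 of the 15 had roles outside meiosis, or none that is well defined. ATG41 (YPL250C), a factor of autophagosome formation, had 10.76, 9.81 and 10.74 at 300 mg/L, against 6.85, 6.24 and 6.60 at 50 mg/L, and rose by 3.87 ± 0.23. BTN2 (YGR142W), which gathers misfolded proteins, had 11.71, 10.88 and 11.60, against 8.11, 8.15 and 7.92, and rose by 3.34 ± 0.19. PHO89 (YBR296C), the sodium-phosphate cotransporter, rose by 3.52 ± 0.23 to 8.89, 7.93 and 8.51 at 300 mg/L, against 4.76, 4.98 and 5.04 at 50 mg/L. In these 3 genes replicate 2 was the lowest array at 300 mg/L. It lay above every array at 50 mg/L, as the rule for the 15 required.

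AGA2 (YGL032C), which encodes the binding subunit of the a-agglutinin, rose by 3.60 ± 0.21 and is described with the mating-type genes. YKL107W rose by 3.49 ± 0.22 and RRT5 (YFR032C) by 3.46 ± 0.13. Adjusted p (limma) for the 15 genes ran from 1.12e-08 for SRT1 to 3.58e-06 for YLR412C-A, and each was called under all 19 alternative settings.

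The largest falls were smaller than the largest rises. WSC4 (YHL028W), a member of the WSC family of cell wall stress sensors, had 7.61, 7.58 and 7.76 at 300 mg/L, against 9.58, 10.17 and 9.56 at 50 mg/L. It fell by 2.11 ± 0.15, which is 4.33-fold. GPH1 (YPR160W), the glycogen phosphorylase, had 8.08, 7.36 and 8.24, against 10.21, 9.92 and 9.82, and fell by 2.09 ± 0.22. HXK1 (YFR053C), a hexokinase, had 9.86, 9.34 and 10.04, against 11.81, 11.66 and 11.41, and fell by 1.88 ± 0.19. The highest array at 300 mg/L lay below the lowest at 50 mg/L in all 3 genes.

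OPT2 (YPR194C), an oligopeptide transporter, fell by 1.81 ± 0.16, and the hexose transporter HXT4 (YHR092C) by 1.75 ± 0.18. The glycogen synthase gene GSY1 (YFR015C) fell by 1.67 ± 0.16, the glutamate decarboxylase gene GAD1 (YMR250W) by 1.56 ± 0.23 and the phosphoglucomutase gene PGM2 (YMR105C) by 1.46 ± 0.23. HXT7 (YDR342C) fell by 1.48 ± 0.17 and the seripauperin PAU18 (YLL064C) by 1.40 ± 0.11, and both probe sets may pick up related genes. ARO10 (YDR380W), a decarboxylase of amino acid breakdown, was even across arrays, with 7.99, 7.96 and 8.03 at 300 mg/L, against 9.41, 9.49 and 9.29 at 50 mg/L. The remaining 4 were YRO2, EGO4, SDH1 and GPM2, which fell by 1.43, 1.42, 1.40 and 1.35. Adjusted p (limma) ran from 8.97e-07 for ARO10 to 0.000724 for EGO4, and these 15 genes too were called under all 19 alternatives.

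**Figure D2:**
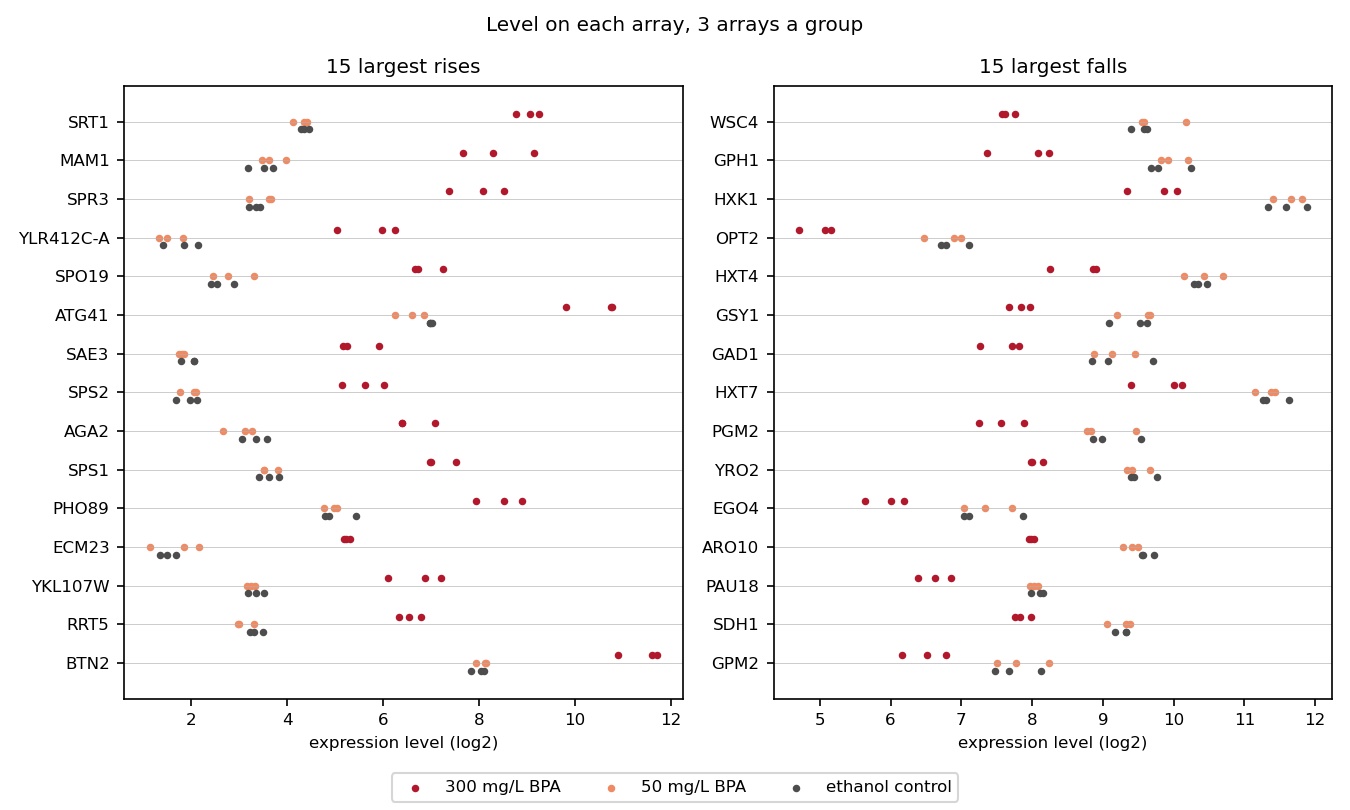
Log2 levels on each array are plotted for the 15 largest rises (left) and 15 largest falls (right), ranked from the top, with 1 point per array and 3 arrays in each group. The 300 mg/L points lie clear of the 50 mg/L points in every gene shown, because the genes were chosen so, while the 50 mg/L and ethanol control points lie close together.

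Genes that build the spore were higher as a group at 300 mg/L. Of 36 measured genes of the spore membrane and wall, 29 were higher and 3 lower, with a median change of 0.57, against 27.5% and 25.3% of all genes. Besides SPR3, SPO19, SPS1 and SPS2, SMA1, a factor of spore membrane assembly, had 5.13, 4.90 and 5.15 at 300 mg/L, against 2.50, 2.07 and 1.80 at 50 mg/L, and SPS100, a wall protein, had 6.78, 6.64 and 6.69, against 4.72, 4.86 and 4.39. Both were named after their values were seen. The 3 lower members were SPS4, which fell by 0.83 ± 0.09, and SPO71 and SPO75, which fell by 0.38 ± 0.10 and 0.30 ± 0.08. For SPO71 the difference of -0.19 between 300 mg/L and control did not pass. With spike-in centring 1 member was lower.

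The list depended on the scaling. With a further quantile normalization, 15 of the 36 were higher and the median was 0.15, while SPR3, SPO19, SPS1 and SPS2 stayed called. Its median level at 50 mg/L was 3.69, low but over the background of 2.05 to 2.20. At that dose 28 members were above background on all arrays and 4 on none.

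Genes of meiotic recombination and chromosome segregation gave a more mixed picture. Of 27 measured, 13 were higher (48.1%) and 1 was lower (3.7%), with a median of 0.26, against 27.5% and 25.3% of all genes. The list was dim, with a median level of 3.82 at 50 mg/L. In the lowest of the 5 level classes 39.9% of genes were higher and 16.3% lower. After MAM1 and SAE3 the largest rise was in MEK1, a checkpoint kinase of meiotic recombination, which had 3.63, 3.46 and 3.73 at 300 mg/L and was not above background at 50 mg/L, so that it rose at least 2.69-fold. CST9, a chromosome synapsis factor, fell by 0.40 ± 0.09, while its difference of -0.17 between 300 mg/L and control did not pass. With a further quantile normalization, 8 were higher and 10 lower.

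Regulators of meiotic entry and progress changed in both directions. IME1, the master activator of meiotic entry, had 6.13, 5.81 and 5.94 at 300 mg/L, against 5.71, 6.22 and 5.93 at 50 mg/L, and the arrays overlapped (adjusted p = 0.968, limma). It was named after its values were seen. NDT80, the transcription factor of middle meiosis, had 5.35, 5.29 and 5.39, against 4.57, 4.19 and 4.40, and rose by 0.96 ± 0.10. IME2, a kinase that acts after IME1, rose by 0.38 ± 0.13, a call that was lost under 5 of the 19 alternatives. Of the 15 regulators, 3 were higher (20%) and 7 lower (46.7%), with a median of -0.30, against 27.5% and 25.3% of all genes. With the arrays centred on spike-ins 0 of the regulators were lower. Without replicate 2 or without replicate 3 at 300 mg/L, 4 were lower. For 300 mg/L against the control the median was -0.09, with 3 higher and 4 lower. The lower ones named by the rule were IME4, SIN3 and RIM101, which fell by 0.39, 0.38 and 0.34. At 300 mg/L, IME4 and SIN3 differed from the control by -0.03 and -0.13, which did not pass, and RIM101 by -0.45, which did. The call of IME4 was lost under 7 of the 19 alternatives, among them without replicate 2 or 3 of either dose.

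The mating-type genes shifted in the opposite sense to each other. These genes tell a cells from alpha cells, the haploid mating types of yeast: a-specific genes are repressed in alpha cells and alpha-specific genes are off in a cells. Of 7 a-specific genes, 6 were higher at 300 mg/L, with a median of 1.19. For 300 mg/L against the control, 4 of the 7 were higher and 0 lower. AGA2 had 6.38, 7.07 and 6.39, against 3.12, 2.66 and 3.26 at 50 mg/L. MFA2, which encodes the a-factor pheromone, rose by 1.47 ± 0.14, and ASG7, an inhibitor of pheromone signalling, by 1.39 ± 0.09. STE6, the a-factor exporter, was the member that did not pass, with a difference of 0.05 ± 0.11.

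Of 4 alpha-specific genes, 3 were lower, with a median of -0.53. STE3, the a-factor receptor, had 9.74, 9.65 and 9.70 at 300 mg/L, against 10.61, 10.32 and 10.59 at 50 mg/L, and fell by 0.81 ± 0.08. SAG1, the alpha-agglutinin, fell by 0.77 ± 0.09 and the pheromone gene MF(ALPHA)1 by 0.30 ± 0.06. All members of both lists were above background on all arrays.

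Summed as linear levels, the a-specific genes ran from 240 to 277 at 300 mg/L, against 108 to 113 at 50 mg/L, and the alpha-specific genes from 10629 to 11134, against 14484 to 14674. Such sums weigh the brightest probe sets most, and the a-specific sum includes AGA2, which rose by 3.60, the most in its list. In the ethanol controls the sums were 109 to 116 and 14129 to 14418. The spore genes summed to 1894 to 2229 at 300 mg/L, against 1111 to 1206 at 50 mg/L. Whether the makeup of the cultures had a part in the rise of the spore genes was not tested. With a further quantile normalization, 4 of the 7 a-specific genes were higher and 2 lower, and AGA2, MFA2 and ASG7 were among the higher ones.

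Of 16 genes of haploid cells and of the pheromone response, 8 fell (50%) and 1 rose (6.25%), with a median of -0.29. Over all genes 25.3% were lower and 27.5% higher. AGA1, the anchor subunit of the a-agglutinin, fell by 0.86 ± 0.10 while its partner AGA2 rose. FUS1, a cell fusion protein, fell by 0.72 ± 0.07, and FUS3, the kinase of the pheromone pathway, by 0.67 ± 0.07.

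**Figure D3:**
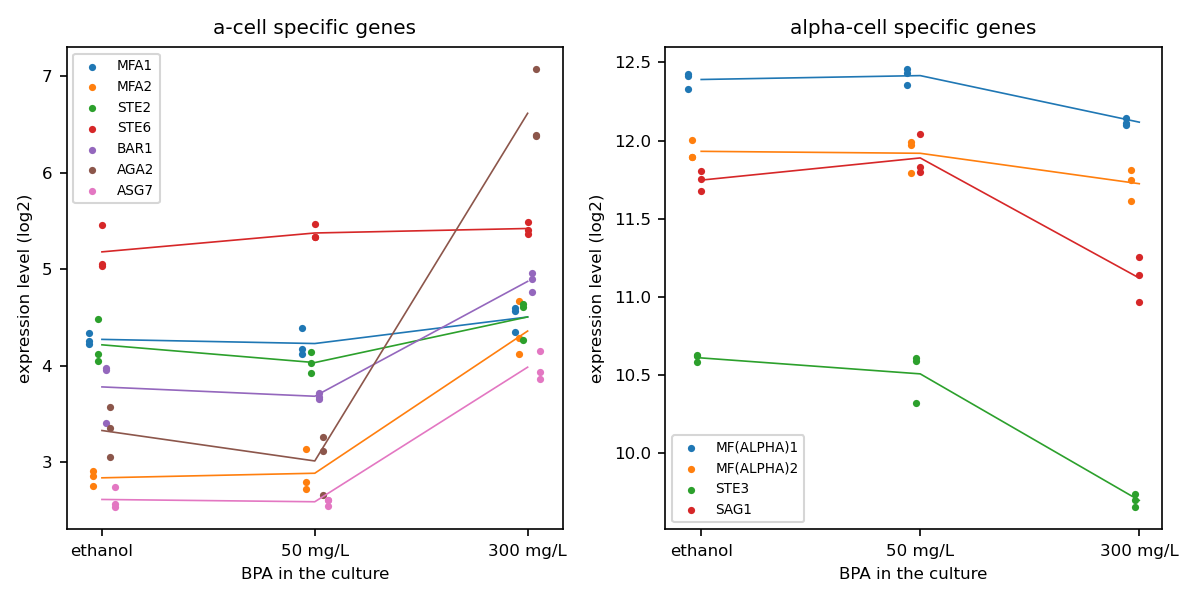
Log2 levels of 7 a-specific genes (left) and 4 alpha-specific genes (right) in ethanol controls and with 50 or 300 mg/L BPA in the culture, with 1 point per array, 3 arrays in each group and lines through the group means. AGA2 shows the largest step, by 3.60 between 50 and 300 mg/L, and STE3 and SAG1 fell by 0.81 and 0.77.

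Drug resistance genes were higher at 300 mg/L. Of 24 genes of the pleiotropic drug resistance network, 16 were higher and 0 lower, with a median of 0.69. For 300 mg/L against the control, 19 were higher and 3 lower. RTA1, a membrane protein that gives resistance to toxic lipophilic compounds, had 7.23, 6.70 and 7.48, against 4.63, 4.87 and 4.91 at 50 mg/L, and rose by 2.33 ± 0.17. HXT11 and HXT9, sugar transporter homologues under control of this network, rose by 2.62 ± 0.30 and 2.49 ± 0.34. They are near-identical genes, so the probe sets may share signal, and replicate 2 was their lowest array at 300 mg/L (4.78 and 5.47).

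The pumps were not uniform, as 2 genes named after their values were seen show. TPO1, a polyamine and drug exporter, had 11.67, 11.28 and 11.56, against 9.81, 9.80 and 9.74, and rose by 1.72 ± 0.09. PDR5, the main multidrug pump of the plasma membrane, had 11.60, 11.38 and 11.68 at 300 mg/L, against 11.28, 11.49 and 11.24 at 50 mg/L. Its arrays overlapped between the doses (adjusted p = 0.118, limma), and its 50 mg/L mean lay 0.49 above the control mean.

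Detoxifying reductases were also higher. Of 9 old yellow enzymes and aryl-alcohol dehydrogenases, 6 were higher and 0 lower. OYE3, a flavin-dependent enone reductase, had 6.66, 5.11 and 6.47 at 300 mg/L, against 3.65, 3.64 and 3.54 at 50 mg/L, and rose by 2.47 ± 0.33. AAD6 and ADH7 rose by 0.71 ± 0.09 and 0.67 ± 0.11. After quantile normalizing again, 4 of the 9 were higher, and the change of ADH7 was 0.11 and no longer called.

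Of 29 oxidative stress genes, 6 were higher (20.7%) and 8 lower (27.6%), near the shares over all genes. CTA1, the peroxisomal catalase, led the higher members with 7.55, 6.08 and 7.44, against 3.93, 3.73 and 3.71, a rise of 3.23 ± 0.31. YAP1, the transcription factor of the oxidative response, rose by 0.55 ± 0.08. The 3 largest falls were in SOD2, the mitochondrial superoxide dismutase, by 0.86 ± 0.09, CCP1, cytochrome c peroxidase, by 0.83 ± 0.08, and PRX1, a peroxiredoxin, by 0.71 ± 0.13.

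Metal uptake genes were higher at 300 mg/L, those for iron and copper in the greater part of each list. Of 31 genes of the iron regulon, 26 were higher and 0 lower, with a median of 0.57. FRE1, the cell-surface reductase that prepares iron and copper for uptake, had 10.81, 10.86 and 10.80 at 300 mg/L, against 8.84, 8.82 and 9.01 at 50 mg/L. SIT1, a siderophore transporter, had 9.58, 9.56 and 9.76, against 7.72, 7.77 and 8.02. FIT2, a wall mannoprotein that holds siderophores, had 10.44, 10.08 and 10.67, against 8.66, 8.44 and 9.19. The rises were 1.93 ± 0.14, 1.80 ± 0.15 and 1.63 ± 0.26, all without overlap.

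Among 9 measured copper genes, 7 were higher and 0 lower. The high-affinity transporter CTR3 had 8.45, 8.69 and 8.46, against 5.77, 5.72 and 5.78, and rose by 2.78 ± 0.09, or 6.848-fold. CTR1, the other plasma membrane transporter, rose by 1.37 ± 0.12, and CTR2, which exports copper from the vacuole, by 1.21 ± 0.08. With spike-in centring 4 of the 9 were higher.

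The zinc list had 6 of 12 higher (50%) and 1 lower (8.33%), against 27.5% and 25.3% of all genes. ZPS1, ZRT2 and ZRT1 led with rises of 0.92, 0.78 and 0.45, and ZRG8 fell by 0.75. Of 18 phosphate genes, 8 were higher (44.4%) and 1 was lower (5.56%). After PHO89, the acid phosphatase PHO11 rose by 1.43 ± 0.12, where its probe set may pick up relatives, and PHM6, of unknown function, by 1.28 ± 0.18. Spike-in centring left 3 higher in the zinc list and 4 in the phosphate list, and 5 phosphate genes were higher without 300 mg/L replicate 2.

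Genes for assembling ribosomes were higher in all 3 classes measured. Of 45 genes of the small subunit processome, 30 were higher and 0 lower, with a median of 0.38. IMP4, a component of the U3 snoRNP, had 10.55, 9.99 and 10.43, against 8.02, 8.11 and 8.40, and rose by 2.14 ± 0.16. FAF1 had 8.38, 8.43 and 8.25, against 6.62, 6.96 and 7.20, and rose by 1.43 ± 0.16. UTP23, a further processome component, rose by 0.94 ± 0.17, and all but 2 members changed by less than 2-fold.

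Of 55 large-subunit assembly factors, 42 were higher and 0 lower, with a median of 0.52 and a narrow upper end: RRS1, REI1 and RSA3 rose by 0.98, 0.92 and 0.91. Of 19 subunits of RNA polymerases I and III, which transcribe ribosomal and transfer RNA, 13 were higher and 0 lower, led by RPC37, RPA34 and RPC11, each at 0.72. With spike-in centring the higher counts were 18, 35 and 8 in these 3 lists, with 0 lower in each.

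The ribosomal proteins themselves moved less. Of 127 cytosolic ribosomal protein genes, 39 were higher (30.7%) and 3 lower (2.36%), with a median of 0.12. Over all genes 27.5% were higher and 25.3% lower, so the higher share was near that of all genes and the lower share was under it. RPS14B had 10.78, 11.02 and 10.94, against 10.22, 9.90 and 10.19, and rose by 0.81 ± 0.10. RPL22B rose by 0.65 ± 0.08, and RPL15B and RPL25 fell by 0.48 ± 0.09 and 0.47 ± 0.07. Without 50 mg/L replicate 2 the counts were 28 higher and 9 lower, and with spike-in centring 3 and 1.

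Mitochondrial ribosomal proteins went the other way, with 5 of 69 higher (7.25%) and 29 lower (42%) and a median of -0.13. Over all genes 27.5% were higher and 25.3% lower. MRPS5 had 6.97, 6.90 and 7.04, against 8.07, 7.84 and 7.98, and fell by 0.99 ± 0.07. MRPL32 and MRPL24 fell by 0.80 ± 0.08 and 0.71 ± 0.09, and MRPL37 rose by 0.48 ± 0.08. Without 50 mg/L replicate 2, 43 members were lower, and with spike-in centring 13.

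Transcripts of the respiratory chain were lower at 300 mg/L. Of 42 genes of oxidative phosphorylation, 35 were lower and 0 higher, with a median of -0.56, and 29 to 39 were lower under the alternatives. SDH1, the flavoprotein of succinate dehydrogenase, had 7.76, 7.82 and 7.98, against 9.38, 9.33 and 9.06. RIP1, the Rieske iron-sulfur protein of complex III, had 7.72, 8.08 and 7.94, against 9.40, 9.09 and 9.05. NDI1, the internal NADH dehydrogenase, had 7.30, 7.44 and 7.71, against 8.76, 8.65 and 8.42. The falls were 1.40 ± 0.10, 1.27 ± 0.12 and 1.13 ± 0.13, with no overlap between doses.

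The citric acid cycle was also lower, in 10 of 14 genes, with 1 higher. KGD2, of the 2-oxoglutarate dehydrogenase complex, fell by 1.10 ± 0.08, the citrate synthase CIT1 by 0.79 ± 0.08 and the malate dehydrogenase MDH1 by 0.61 ± 0.10. The higher member was CIT3, at 3.38, 3.61 and 3.92, against 3.24, 2.89 and 3.02, and its change of 0.59 ± 0.14 turned to -0.11 with a further quantile normalization.

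Glycolytic genes were lower, though modestly for most. Of 20 genes of glycolysis and fermentation, 15 were lower and 0 higher, with a median of -0.25. Behind HXK1, the enolase ENO1 had 11.72, 11.37 and 11.75, against 12.97, 13.05 and 12.85, and fell by 1.34 ± 0.11. TDH1, a glyceraldehyde-3-phosphate dehydrogenase, had 11.06, 10.45 and 11.14, against 12.32, 12.05 and 12.15, and fell by 1.29 ± 0.16. With spike-in centring 5 members were lower, and with a further quantile normalization 9.

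Genes that make and those that break down glycogen and trehalose were lower. Of 21 genes, 17 were lower and 1 was higher, with a median of -0.56. Breakdown (GPH1), synthesis (GSY1) and precursor supply (PGM2) all fell. GAC1, a regulatory subunit that directs a phosphatase to glycogen synthase, had 8.11, 6.06 and 8.13, against 5.89, 5.73 and 5.29, and rose by 1.80 ± 0.47. Its replicate 2 value lay just above the 50 mg/L arrays and far under the other 2 at 300 mg/L.

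Hexose transporters moved in both directions. Of 17 measured transporters and sensors, 9 were higher (52.9%) and 3 lower (17.6%), with a median of 0.72, against 27.5% and 25.3% of all genes. The list was dim, with a median level of 4.06 at 50 mg/L. In the lowest of the 5 level classes 39.9% of genes were higher and 16.3% lower. GAL2, the galactose permease, had 6.67, 6.20 and 6.42, against 3.87, 3.76 and 3.84, and rose by 2.61 ± 0.11. HXT1, the low-affinity glucose carrier, had 8.77, 9.16 and 9.04, against 6.34, 7.03 and 6.88, and rose by 2.24 ± 0.19, though it was named after its values were seen. The high-affinity carriers HXT4 and HXT7 fell, and so did SNF3, the sensor of low glucose, by 0.73 ± 0.07. With a further quantile normalization the median was 0.23.

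Genes for growth without glucose changed in both directions. Of 16 genes of the glyoxylate cycle and gluconeogenesis, 8 were higher (50%) and 4 lower (25%), against 27.5% and 25.3% of all genes. The lower share was thus near that of all genes. This list was dim too, as its median level with 50 mg/L BPA was 5.88. The lowest of the 5 level classes had 39.9% of genes higher and 16.3% lower. PCK1, the enzyme that starts gluconeogenesis from oxaloacetate, had 7.42, 7.17 and 7.24, against 5.70, 5.30 and 5.41, and rose by 1.80 ± 0.10. ADY2, an acetate transporter, rose by 1.69 ± 0.12 and SFC1, a mitochondrial succinate-fumarate carrier, by 1.54 ± 0.22. CAT8, the transcriptional activator of such genes, fell by 0.67 ± 0.12, and the malate dehydrogenases MDH2 and MDH3 by 0.60 ± 0.09 and 0.37 ± 0.10. With a further quantile normalization 4 were higher and 4 lower.

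Of 22 genes of fatty acid oxidation and peroxisomes, 9 were higher (40.9%) and 4 lower (18.2%), against 27.5% and 25.3% of all genes. These genes were dim, and their median level with 50 mg/L BPA was 5.95. Their shares were near those of the lowest of the 5 level classes, 39.9% higher and 16.3% lower. Besides CTA1, the import factor PEX21 rose by 1.49 ± 0.10 and the acyl-CoA oxidase POX1 by 1.09 ± 0.19, while the thioesterase TES1 and the import receptor PEX5 fell by 0.68 ± 0.11 and 0.52 ± 0.09. The list median, 0.18, was -0.07 with a further quantile normalization, where the change of POX1 was 0.39 and no longer called. Of 6 measured galactose genes, GAL7 was higher, by 1.18 ± 0.16, and GAL3 lower, by 0.45 ± 0.13, with arrays that overlapped.

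**Figure D4:**
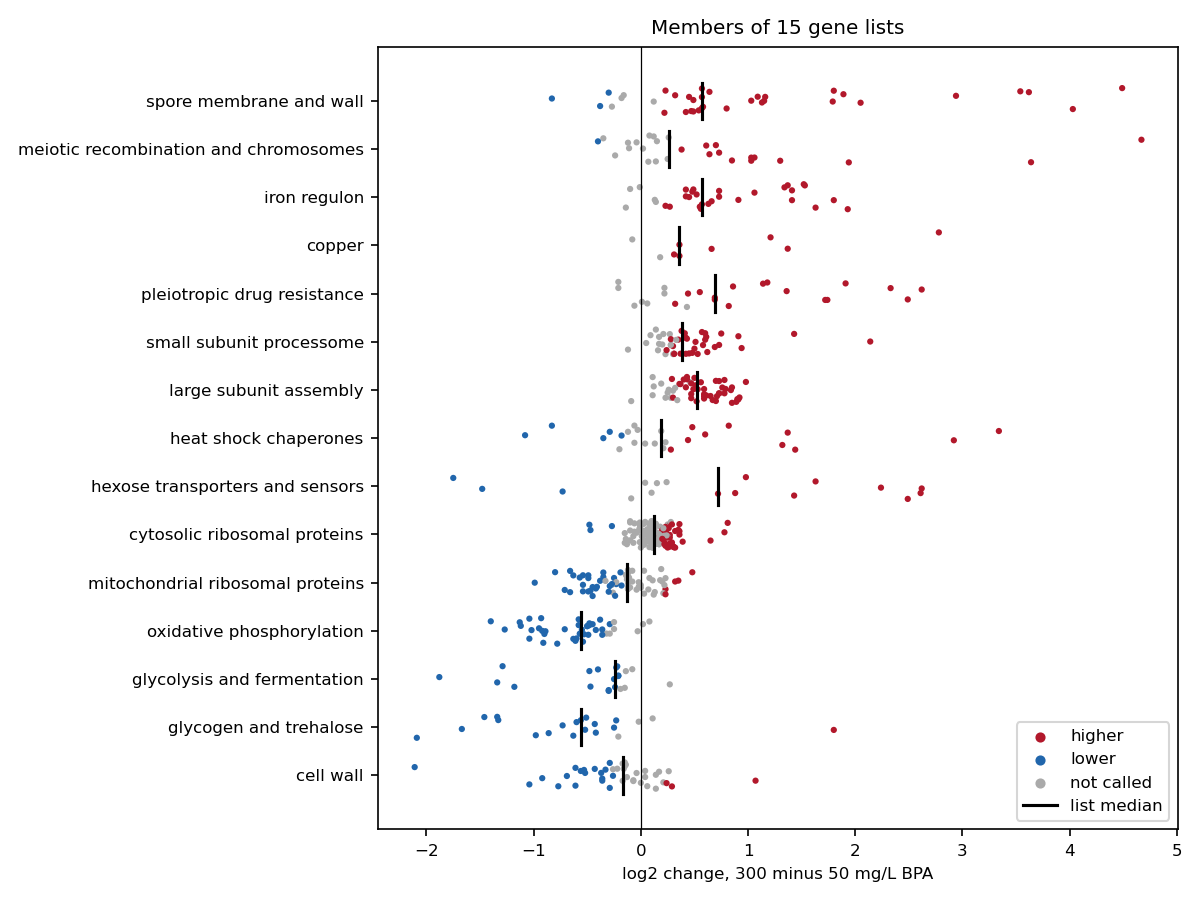
Each point is a gene of 1 of 15 lists, placed by its log2 change (300 minus 50 mg/L BPA); red points passed the test as higher, blue points as lower and grey points did not pass, and a black bar marks the list median. The oxidative phosphorylation bar lies at -0.56 with no red point, the large subunit assembly bar at 0.52 with no blue point, and the chaperones spread to both sides.

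Chaperones of the heat shock response were split. Of 25 heat shock chaperone genes, 10 were higher (40%) and 5 lower (20%), with a median of 0.19, against 27.5% and 25.3% of all genes. Besides BTN2, the Hsp40 protein APJ1 had 9.66, 8.75 and 9.44, against 6.42, 6.30 and 6.36, and rose by 2.92 ± 0.18. CUR1, a sorting factor related to BTN2, rose by 1.44 ± 0.17. HSP26, a small heat shock protein, had 9.96, 8.99 and 10.30, against 11.16, 10.43 and 10.90, and fell by 1.08 ± 0.30, and SSE2 fell by 0.83 ± 0.13.

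In the endoplasmic reticulum, 9 of 18 folding genes fell (50%) and 2 rose (11.1%), against 25.3% and 27.5% of all genes. The disulfide isomerases EUG1, MPD1 and PDI1 fell by 0.93 ± 0.08, 0.77 ± 0.13 and 0.61 ± 0.08. HAC1, the transcription factor of the unfolded protein response, rose by 0.50 ± 0.17 (adjusted p = 0.0321, limma), a call lost without any 1 of the 3 arrays at 300 mg/L and in a fit of the 6 arrays alone. With spike-in centring 5 of the 18 were lower.

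Of 32 proteasome genes, 12 fell (37.5%) and 1 rose (3.12%), with a median of -0.10. Over all genes 25.3% were lower and 27.5% higher. PUP2 and PRE8 led the falls, by 0.54 ± 0.11 and 0.46 ± 0.10. With spike-in centring 1 was lower. RPN4, the transcription factor of proteasome genes, had 11.15, 10.59 and 11.18, against 8.69, 8.49 and 8.58, and rose by 2.39 ± 0.16. It was named after its values were seen.

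General stress genes, which yeast raises under many kinds of stress, were more often lower than higher. Of 31, 15 fell (48.4%) and 5 rose (16.1%), with a median of -0.56, against 25.3% and 27.5% of all genes. GAD1, YRO2 and SOL4 fell most, SOL4 by 1.31 ± 0.30. FMP16 rose by 1.61 ± 0.22, with 7.99, 7.71 and 7.92, against 6.61, 5.93 and 6.23. SIP18 and PHM7 rose by 0.97 ± 0.19 and 0.80 ± 0.22, and the call of SIP18 was lost with a further quantile normalization.

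Cell wall genes were lower in 18 of 42 (42.9%) and higher in 3 (7.14%), with a median of -0.17, against 25.3% and 27.5% of all genes. After WSC4, the glucan synthase GSC2 fell by 1.04 ± 0.17 and the glucanosyltransferase GAS5 by 0.92 ± 0.10. PIR3, a wall mannoprotein, rose by 1.07 ± 0.15. Without 50 mg/L replicate 2, 6 were higher and 17 lower, and with spike-in centring 1 and 10.

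Of 29 ergosterol genes, 10 were higher (34.5%) and 9 lower (31%), near the shares over all genes of 27.5% and 25.3%. UPC2, a sterol-sensing transcription factor, rose by 0.89 ± 0.08, and ERG13, the HMG-CoA synthase, fell by 0.66 ± 0.07. With spike-in centring the counts were 2 and 4.

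Of 34 autophagy genes, 7 were higher (20.6%) and 12 lower (35.3%), against 27.5% and 25.3% of all genes. ATG39 and ATG40, receptors for turnover of the endoplasmic reticulum and nuclear envelope, rose by 1.42 ± 0.15 and 1.18 ± 0.23. ATG4, the protease that processes Atg8, fell by 0.82 ± 0.07, ATG17, a scaffold of autophagosome initiation, by 0.75 ± 0.08, and ATG33, a factor of mitochondrial turnover, by 0.73 ± 0.11. Of 11 vacuolar hydrolases, 7 were lower and 0 higher, led by the aminopeptidase APE1, which had 8.64, 8.38 and 8.93, against 10.23, 9.80 and 9.87.

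Nitrogen and sulfur metabolism changed gene by gene. Of 59 amino acid biosynthesis genes, 16 were higher and 15 lower, which is near the shares over all genes. ARG3 and CPA1 of arginine synthesis rose by 1.16 ± 0.10 and 1.07 ± 0.11, LYS20 of lysine synthesis by 1.16 ± 0.10, and HIS4 of histidine synthesis fell by 0.97 ± 0.10. GLN1, glutamine synthetase, and GDH1, glutamate dehydrogenase, fell by 0.67 ± 0.10 and 0.56 ± 0.10. With spike-in centring the counts were 8 higher and 5 lower.

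Of 26 sulfate and methionine genes, 14 were higher (53.8%) and 3 lower (11.5%), against 27.5% and 25.3% of all genes. MET32, a transcription factor of the pathway, rose by 1.58 ± 0.15, with 7.06, 6.33 and 6.87, against 5.16, 5.14 and 5.22. STR3 and MET28 rose by 1.05 ± 0.15 and 0.88 ± 0.19. Spike-in centring left 8 higher and 0 lower.

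Of 24 amino acid and peptide permeases, 10 were higher (41.7%), or 6 without 300 mg/L replicate 3, and 5 were lower (20.8%). The shares over all genes were 27.5% and 25.3%. With spike-in centring 5 permeases were higher and 3 lower. PUT4, the proline permease, rose by 1.69 ± 0.18, MEP1, an ammonium permease, by 1.03 ± 0.13 and BAP2 by 0.50 ± 0.06, whereas OPT2 and the peptide transporter PTR2 were lower, PTR2 by 0.53 ± 0.08. Of 14 genes that turn amino acids into fusel alcohols and esters, 5 were lower (35.7%), with ARO10, ARO9 and EEB1 at the front. The 2 higher ones (14.3%) were the acetyltransferases ATF1 and ATF2, with rises of 0.63 and 0.42. EEB1 stood 0.67 lower at 300 than at 50 mg/L and 0.67 lower at 50 mg/L than in the control, though the second difference did not pass the test. Of 19 purine and one-carbon genes, 8 fell (42.1%) and 0 rose, with ADE2 and ADE17 of purine synthesis falling by 0.91 ± 0.09 and 0.90 ± 0.17.

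Cell cycle genes of the G1/S transition and DNA replication were lower in 14 of 31 (45.2%) and higher in 1 (3.23%). Their median was -0.18, and 25.3% of all genes were lower and 27.5% higher. The G1 cyclins PCL1 and CLN1 had 6.59, 6.98 and 6.71, against 7.91, 7.93 and 7.83, and 8.01, 8.12 and 8.06, against 8.72, 9.20 and 8.88. POL30, the replication clamp, fell by 0.71 ± 0.11, and SIC1, a cyclin kinase inhibitor, rose by 0.33 ± 0.06. Without 50 mg/L replicate 2, 6 were higher and 16 lower. Of 10 histone genes, 2 were higher (20%) and 2 lower (20%), near the shares over all genes of 27.5% and 25.3%. HTZ1 and HHF1 rose by 0.29 and 0.24, while HHO1 and CSE4 fell by 0.40 and 0.37. With spike-in centring 0 histone genes passed in either direction.

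**Figure D5:**
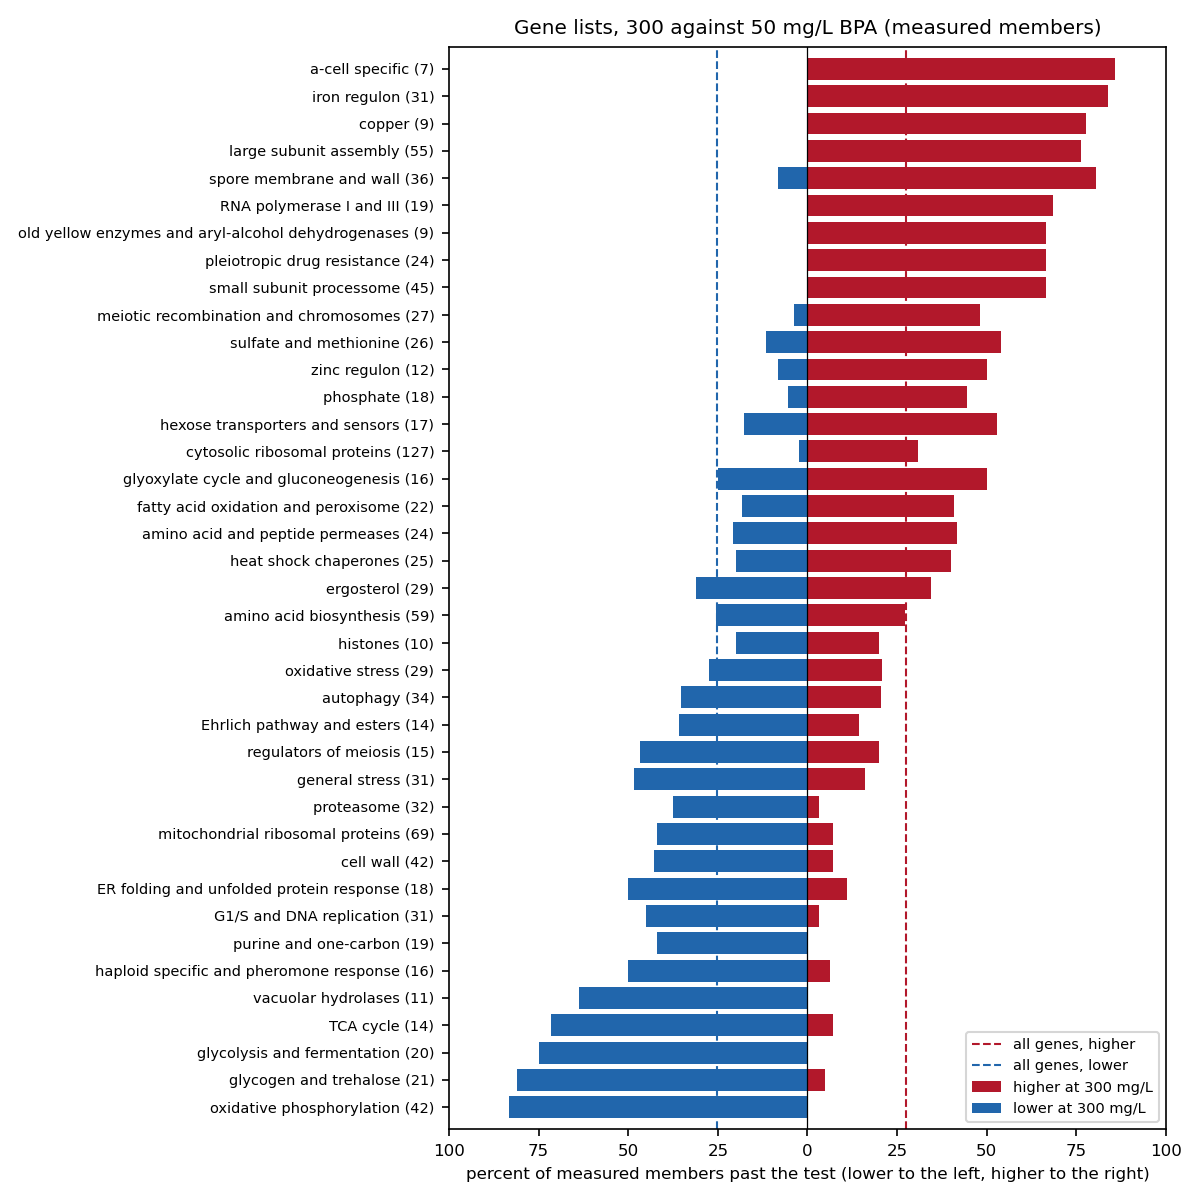
For each of the gene lists with at least 7 measured members (number in brackets), the red bar gives the percent of members that were higher at 300 than at 50 mg/L BPA and the blue bar, drawn to the left, the percent that were lower. Dashed lines give the shares over all 5449 genes (27.5% higher, 25.3% lower); the lists run from a-specific genes and the iron regulon at the top to oxidative phosphorylation at the bottom.

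Which genes were called depended in part on which culture served as the baseline. For 461 genes, 219 higher and 242 lower, 300 mg/L differed from 50 mg/L but not from the control by the test. Their median absolute change was 0.29 against 50 mg/L and 0.15 against control, with a median absolute difference of 0.14 between 50 mg/L and control. The reverse held for 455 genes, 222 higher and 233 lower, with medians of 0.17 against 50 mg/L and 0.31 against control. Being called in one contrast and not in the other does not show that the contrasts differ, since 0 genes passed between 50 mg/L and control.

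Among the first set, APT1, an adenine phosphoribosyltransferase, had 10.11, 10.10 and 10.20 at 300 mg/L, against 9.70, 9.27 and 9.75 at 50 mg/L, and rose by 0.57 ± 0.11 while lying 0.28 above control. YLR154C-H had 7.05, 7.19 and 7.70, against 6.43, 5.32 and 6.91, and rose by 1.09 ± 0.33. Its lowest array was 50 mg/L replicate 2, its probe set may pick up related sequences, and its call was lost without 300 mg/L replicate 3. AZR1, a transporter of the major facilitator family, rose by 0.86 ± 0.27, a call lost with a further quantile normalization (0.17) and without replicate 3 of either dose. CIT3 rose by 0.59 ± 0.14, while UTR5 was not above background at either dose, so no fold is given. The 5 falls were PRM6, ZDS1, STP4, TIR3 and FYV8, by 0.71, 0.56, 0.55, 0.53 and 0.51.

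In the reverse set, RSB1, a sphingoid base transporter, had 8.71, 7.80 and 8.71 at 300 mg/L, against 8.18, 7.96 and 7.81 at 50 mg/L. It lay 0.97 above control at 300 mg/L and 0.54 above it at 50 mg/L, the second of which did not pass. BUD22 was 0.75 above control and 0.43 above 50 mg/L. YHL009W-A, a reading frame of a Ty retrotransposon whose probe set may pick up other copies, was 1.21 above control and 0.59 above 50 mg/L. RTC3 was 1.00 below control and 0.75 below 50 mg/L (adjusted p = 0.0707, limma). RSM26 and ANB1 were 0.62 and 0.67 below control, with 50 mg/L replicate 2 at or under the level of some 300 mg/L arrays.

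The place of a gene on its chromosome went with its change. Of 235 measured genes among the outermost 10 of each chromosome arm, 37% were higher and 16.6% lower, and 8.09% were at least 2-fold higher. Among the genes farther than 30 from an end, 27% were higher, 25.8% lower and 3.87% at least 2-fold higher. The probe sets of the end genes were also dimmer, with a median of 6.28 against 8.08, and the part of brightness in this difference was not tested.

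Of the 226 genes at least 2-fold higher, 50 lay next to another such gene in the gene order, forming 27 neighbouring pairs among 5017 pairs of adjacent measured genes. The pairs include SPS2 and SPS1, FIT2 and FIT3, and HXT1 and HXT5. A probe set can read through into a neighbour where transcripts overlap, and this was not tested. SSA4, an Hsp70 chaperone with a rise of 1.37, lay beside RTT105 with a rise of 3.10. NSR1, a nucleolar protein with a rise of 1.09, lay beside RTS3 with a rise of 3.11. Other than SPS1, SPS2 and FIT2, the genes of these pairs were chosen after their values were seen.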

How the data were processed

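The deposited table gives a log2 expression value for each probe set on each array. Per the submitters' processing notes the authors used RMA, affy and limma, whose versions and roles are not stated; RMA corrects background, equalises probe intensities between arrays and summarises probe sets. No counts exist, so the number of arrays limits the precision. No hybridisation date or batch is given in the sources used here, and none was tested.

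Of 10928 probe sets, 7245 had a listed gene, 1 of them with several, and 5498 were found in the S. cerevisiae gene table of assembly R64, which served for gene order and names and updated 12 symbols. For 47 genes that had more than 1, the brightest on average was kept, leaving 5449 genes, 118 of them measured by probe sets that may pick up related sequences. A gene was above background on an array when it exceeded the 95th percentile of the 1746 S. pombe probe sets. Where all 3 arrays of 1 dose did not, the fold is a bound, computed with each dim value raised to that percentile if it was below it.

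A linear model over all 9 arrays (limma 3.58.1 in R 4.3.3, with lmFit and eBayes) gave two-sided tests, adjusted by Benjamini-Hochberg across all genes and called at 0.05. Errors are standard errors of that fit. No set test was run on the 41 gene lists: they are described by counts and medians beside those over all genes. The comparison, the lists and the genes were chosen with earlier results of these data known, so the lists give no independent evidence. The rule for named genes took the 15 largest rises and 15 largest falls among called genes whose arrays do not overlap between the doses. It took 5 of each among genes called against 50 mg/L and not against control, and 5 of each the other way round. In each list it took the 3 largest rises and 3 largest falls among called members. Other names are stated as chosen after their values were seen.

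The pipeline was tested on simulated data: with 200 of 5449 genes changed, over 20 runs of 300 against 50 mg/L, it recovered 40% of the genes changed by 1.25-fold and 83.3% of those changed by 1.5-fold. Recovery was 97.9% for 2-fold and 99.8% for 4-fold changes, with 4.83% false calls. The simulation drew independent noise with the same spread in every group and changed far fewer genes than the 2878 called here. Its rates may therefore not carry over to these data. Alternatives were the 6 arrays alone, 4 other scalings, a filter on dim genes, the mean of probe sets, array weights, trended robust eBayes, a replicate block and each array left out. The labels do not state a pairing of replicate numbers between the 50 mg/L and control arrays. Deviations from the group means correlated from 0.189 to 0.42 in the 3 same-numbered pairs and from -0.428 to 0.18 in the other 6. These correlations are not independent of each other, so they are weak grounds for a pairing. Promoter sequences were not analysed here. Figures were drawn with matplotlib 3.10.9.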

Additional observations from a re-analysis of the deposited data

Results flagged for a closer look

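Signals outside the gene comparison also differed between the doses, in probe sets that no gene result uses. Each value is a log2 change, 300 minus 50 mg/L BPA, from a limma fit over all probe sets of the arrays. Among them were control probe sets against ribosomal RNA, of which those at least 2-fold higher at 300 mg/L are given. For 25S rRNA, AFFX-25srRnad_at was higher by 1.93, AFFX-25srRnac_at by 1.78, AFFX-25srRnae_at by 1.39 and AFFX-r2-Sc-25SrRNA-3_at by 1.29. For 18S rRNA, AFFX-18srRnae_at was higher by 1.62, AFFX-r2-Sc-18SrRNA-3_at by 1.25 and AFFX-18srRnad_at by 1.06, and the S. pombe 18S probe set AFFX-r2-Sp-18SrRNA-3_at by 1.64. Not all rRNA signals rose: AFFX-r2-Sc-18SrRNA-5_at changed by -0.24, AFFX-18srRnab_at by -0.37 and AFFX-r2-Sp-18SrRNA-5_at by -0.40, all called. Of 166 control probe sets, 21 were higher and 14 lower, 8 and 6 of them at least 2-fold. Those at least 2-fold lower were against RIP1 and TDH1 mRNA. Among probe sets with no listed gene, 60 of 3517 were higher and 118 lower; the largest rises were 1775970_at by 3.13, 1770587_at by 3.07, 1779659_at by 2.41 and 1775114_at by 2.28. Of 1746 S. pombe probe sets, 18 were higher and 38 lower, and 0 of either changed 2-fold. None of these classes had a probe set called between 50 mg/L and control by limma. The part of these signals in the gene results was not tested.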

How the results depend on the processing

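Changes were recomputed under 19 alternatives. Counts fell most with spike-in centring, to 1417 genes for 300 against 50 mg/L (882 higher, 535 lower) and 1532 for 300 mg/L against control (679 higher, 853 lower). Of the 1417, 1396 were also called as reported, with 0 in the opposite direction. With a further quantile normalization 78 genes were at least 2-fold lower, against 48 as reported, 9 shared calls had the opposite direction, and CIT3 changed by -0.11. Array weighting gave 31 genes between 50 mg/L and control, though the weights had not converged. Leaving out 1 array in turn gave 2408 to 2998 genes for 300 against 50 mg/L (1279 to 1539 higher, 1129 to 1459 lower), 269 to 299 at least 2-fold (220 to 242 higher, 41 to 59 lower), 2338 to 3313 for 300 mg/L against control (1242 to 1726 and 1082 to 1587) and 0 between 50 mg/L and control. No pairing by replicate number was seen between the 300 and 50 mg/L arrays. Deviations of same-numbered arrays correlated from -0.256 to 0.159 (n = 3 pairs) and of others from -0.289 to 0.404 (n = 6 pairs). With the replicate block 2902 genes were called (1500 higher, 1402 lower), 2790 of them also called as reported. Between 50 mg/L and control, where a pairing by number is possible but not stated by the labels, 0 genes were called with the replicate block. Of 198 named genes called, 154 kept the call under every alternative and 44 lost it under at least 1. Of 1558 list counts, 125 moved by more than 1.5 times. Signal over background limits 9 called genes that were not above background on any of the 6 arrays.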
